A study of Mus musculus with 9 samples.

Results

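The genes described here are 10 regulators of the step at which a cell leaves G1 or stays in it: the inhibitors of cyclin-dependent kinases (CDKs) Cdkn1a (p21), Cdkn1b (p27), Cdkn1c (p57), Cdkn2c (p18) and Cdkn2d (p19), the D cyclins Ccnd1, Ccnd2 and Ccnd3, and 2 further p53 target genes, Ccng1 and Mdm2. They were chosen by name, as members of these families, out of 56691 gene IDs in the deposited table. Earlier results of these data were known when the choice was made. Shares over all genes are therefore set beside the counts of these genes as a description only. All 10 passed the filter on low counts, which left 20204 genes. The cells were liver macrophages sorted on F4/80 and CD11b from male C57BL/6 mice of 6 to 8 weeks, 24 h and 48 h after partial hepatectomy (PHx, here the removal of 70% of the liver) and at 0 h, with 3 libraries at each time. The labels name no transgene or drug for these groups, and all 3 groups passed through collagenase perfusion and sorting. No source tells if the replicates of 1 time were taken from different mice. The p-values therefore measure only the spread between libraries, which may be technical.

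D cyclins bind CDK4 and CDK6, and the active kinases phosphorylate the retinoblastoma protein, which releases E2F factors and lets S phase begin. Proteins of the INK4 family (p18 and p19) bind CDK4 and CDK6 directly, whereas proteins of the CIP/KIP family (p21, p27 and p57) bind complexes of cyclins and CDKs, above all those of CDK2. The best known activator of Cdkn1a is p53, which also drives Mdm2, the ubiquitin ligase that degrades p53, and Ccng1, an atypical cyclin. Cdkn1a is also switched on without p53 by growth factor and inflammatory signals, and in macrophages p21 is known to restrain proliferation and inflammatory activation.

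Sequence upstream of the genes was read for 7 of the 10 genes in RefSeq (GRCm38.p6), in 10 windows that span 250 bases before and 50 bases after a transcript start. Windows were searched for the p53 decamer, a consensus of 10 bases that reads the same on both strands. An exact decamer stood in 8.36% of all 32851 windows (2745 windows) and in 4 windows of the 10 genes, those of Cdkn1a, Ccng1, Cdkn2d and Mdm2. A pair of adjacent decamers with at most 1 mismatch over the 20 bases was rarer, in 0.0883% of all windows (29 windows). Among the 10 genes it was found in the window of the upstream Cdkn1a start and in that of Ccng1, and the 250 bases before these starts are shown because both of these p53 target genes carried such an element while their values below differed. Capitals mark the 20 bases. The Cdkn1a stretch is chr17:29090729-29090978 on the plus strand, and 31 bases lie between its element and the transcript start. The Ccng1 stretch is chr11:40755287-40755536 on the minus strand, and 175 bases lie between element and start.
Cdkn1a: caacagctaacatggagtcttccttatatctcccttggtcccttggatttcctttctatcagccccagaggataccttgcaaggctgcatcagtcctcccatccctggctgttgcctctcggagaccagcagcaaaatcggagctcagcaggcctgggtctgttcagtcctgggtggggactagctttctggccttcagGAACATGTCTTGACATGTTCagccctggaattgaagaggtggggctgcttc
Ccng1: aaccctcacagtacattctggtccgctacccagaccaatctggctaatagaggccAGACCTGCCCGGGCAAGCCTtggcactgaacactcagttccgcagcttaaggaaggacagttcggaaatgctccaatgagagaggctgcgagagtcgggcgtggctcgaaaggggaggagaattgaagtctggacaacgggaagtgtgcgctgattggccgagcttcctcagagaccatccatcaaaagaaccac
The window of the second Cdkn1a start had 5 mismatches in its best pair of decamers, that of Mdm2 had 5 and that of Cdkn2d had 4. Sequence outside the windows, such as introns, was not searched, so a gene without a match here may carry one elsewhere. A match is a description of the letters and not a binding site. The 29 windows belong to 29 genes, of which 15 were tested here. Of these 15, 1 was called higher at 24 h than at 0 h, which was Cdkn1a, and 2 were called higher and 2 lower at 48 h than at 0 h.

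Libraries held 53297943 to 67951168 estimated counts. The 48 h libraries stood apart from the others, with 7.06% to 17.9% of counts in mitochondrially encoded genes, against 2.37% to 4.53% in the remaining libraries. Levels are given in CPM, the count scaled to the TMM-corrected total of its library. Summed over 10 macrophage markers, including those of the sorting proteins, the level was 65297 to 83801 CPM at 0 h, 38487 to 84277 CPM at 24 h and 10445 to 24367 CPM at 48 h. Lyz2 alone made up 82.8% to 94.9% of this sum in a library. Over the other 9 markers the level was 3380.4 to 4798 CPM at 0 h, 6357 to 6633 CPM at 24 h and 879 to 2036 CPM at 48 h. None of the 10 was at 0 in all libraries, and edgeR called 7 of them lower and 1 higher at 48 h than at 0 h. Adgre1, which encodes F4/80, had 221, 63.6 and 107 CPM at 48 h and 128 to 172 CPM at 0 h, and Itgam, which encodes CD11b, had 10.8 to 20.1 CPM at 48 h and 36.4 to 73.9 CPM at 0 h. The Kupffer cell sum, over 8 markers, was 701 to 4695 CPM at 48 h, against 262 to 979 CPM at 0 h. Of the 8, 5 were called higher and 0 lower. Endothelial, B cell, T and NK cell and erythroid markers were also higher at 48 h than at 0 h. The neutrophil and platelet sums were lower and hepatocyte and stellate cell sums overlapped. Markers within the lower sums were split. Of 9 neutrophil markers, 2 were called higher and 2 lower at 48 h against 0 h. Of 5 platelet markers, 0 were called higher and 2 lower, and 2 lay above 0 h in every library. The sum over 13 endothelial markers was 5408 to 6732 CPM at 48 h, against 452 to 766 CPM at 24 h and 247 to 264 CPM at 0 h, and all 13 were called higher at 48 h in both comparisons. The B cell sum was 380.1 to 818 CPM at 48 h, against 17.4 to 40.2 CPM at 24 h and 14.5 to 38.2 CPM at 0 h. The erythroid sum was 42083 to 169395 CPM at 48 h, against 8381 to 53402 CPM at 24 h and 7978 to 17887 CPM at 0 h. Thus 48 h and 24 h overlapped. The sum over 9 neutrophil markers was 1625 to 2871 CPM at 48 h, against 5074 to 12740 CPM at 0 h. That over 10 T and NK cell markers was 86.8 to 199.6 CPM, against 3.88 to 13.3 CPM. In sorted bulk samples fewer cells of a type and less RNA per cell cannot be told apart, and this holds for each 48 h result below. The part of these markers in the 48 h results was not tested.

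Across the 3 times, 5 of the 10 genes changed at an adjusted p under 0.05 in edgeR's quasi-likelihood test of any difference, where 18.8% of all genes tested did. These were Cdkn1a (adjusted p = 6.95e-06), Cdkn1c (adjusted p = 8.5e-05), Mdm2 (adjusted p = 0.00383), Ccnd2 (adjusted p = 0.0172) and Ccnd1 (adjusted p = 0.0483). At 24 h against 0 h, 1 of the 10 genes was called higher and 0 were called lower, where 0.0495% of all genes were called higher and 0.0297% lower. With no adjustment (p under 0.05) there were 3 higher and 1 lower, and DESeq2 and limma-voom each called 1 higher and 0 lower. Of all 20204 genes tested, 1335 had an unadjusted p under 0.05 in either direction. DESeq2 called 267 of all genes higher and 107 lower, and limma-voom called 8 and 2. Between 48 h and 0 h, 2 were called higher and 2 lower, where 9.86% of all genes were called higher and 8.95% lower. For 48 h against 24 h, 3 were called higher and 2 lower, against 10.2% and 9.6% of all genes. The median log2 fold change of the 10 genes was 0.31 at 24 h against 0 h, -0.07 at 48 h against 0 h and -0.17 at 48 h against 24 h. Over all genes tested the medians were -0.03, -0.04 and 0.05 in the same order.

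**Figure D1:**
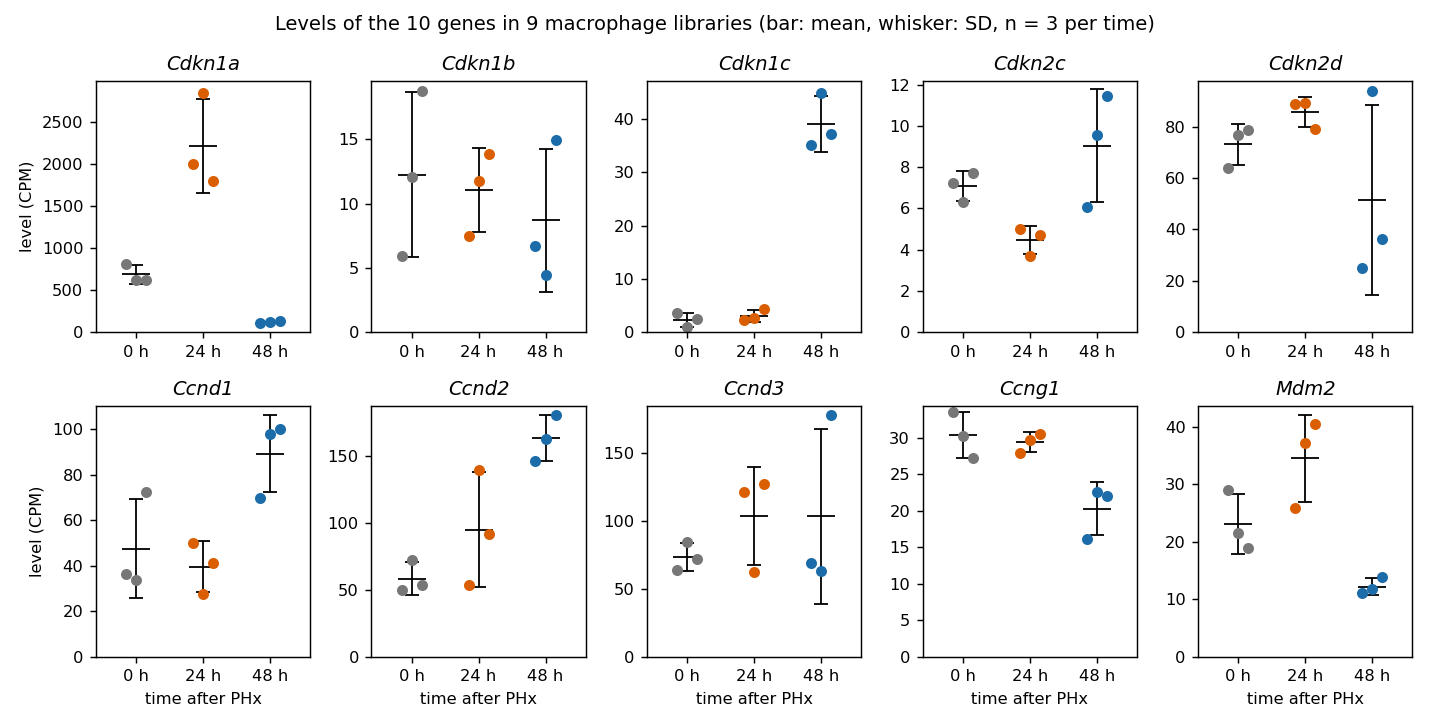
Level of each of the 10 genes in CPM (linear axes from 0) against time after PHx, with 1 point per library, the mean as a bar and the SD as whiskers (n = 3 per time). Cdkn1a was highest at 24 h (1797 to 2845 CPM) and lowest at 48 h (111 to 127 CPM), whereas Cdkn1c was near 0 CPM until it reached 35.1 to 45.0 CPM at 48 h.

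Of the 3 CIP/KIP inhibitors, Cdkn1a and Cdkn1c moved in opposite directions at 48 h, and Cdkn1b did not pass the test. Cdkn1a (ENSMUSG00000023067, chromosome 17) had 814, 621 and 624 CPM at 0 h, 1993, 2845 and 1797 CPM at 24 h, and 111, 116 and 127 CPM at 48 h. The 3 times did not overlap, and the 48 h libraries were also the closest to each other, with an SD of 8.002 CPM. The mean was 2212 ± 557 CPM at 24 h and 687 ± 110.5 CPM at 0 h (SD, n = 3 each), a ratio of 3.22 and a log2 fold change of 1.69 ± 0.23 (SE, adjusted p = 0.0395 in edgeR's quasi-likelihood test). It was the only one of the 10 genes called at 24 h. Without a single library the log2 fold change stayed between 1.47 and 1.84, but the call was lost in 7 of 9 cases, with an adjusted p of 0.0901, 0.248 and 0.194 without 0 h replicates 1, 2 and 3, of 0.0582, 0.0943 and 0.0811 without 24 h replicates 1, 2 and 3, and of 0.0603 without 48 h replicate 3 (edgeR). At 24 h the macrophage sum overlapped that of 0 h with Lyz2 and lay above it in every library without Lyz2. Only 1 of the 10 macrophage markers, Cd14, lay above 0 h in every library, and edgeR called 0 of the 10 in either direction. Cd14 had 3276, 4362 and 4106 CPM at 24 h and 1548, 1379 and 884 CPM at 0 h. In addition, 8 of 8 Kupffer cell markers, 13 of 13 endothelial markers and 6 of 9 neutrophil markers lay above 0 h in every library. The same held for 7 of 20 immediate-early and heat-shock genes, and for 8.37% of all genes tested. At an adjusted p under 0.05, edgeR called 0 of the Kupffer cell, 1 of the endothelial and 0 of the neutrophil markers higher, and 0 lower. The part of these genes in the Cdkn1a result was not tested.

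At 48 h Cdkn1a fell to 118 ± 8.002 CPM, against 687 ± 110.5 CPM at 0 h and 2212 ± 557 CPM at 24 h. The level was 5.83-fold lower than at 0 h (a log2 fold change of -2.54 ± 0.24, edgeR adjusted p = 4.95e-05) and 18.8-fold lower than at 24 h (-4.23 ± 0.25, edgeR adjusted p = 1.98e-05). Both calls held in all 12 alternative settings and without each library in turn, with log2 fold changes between -2.70 and -2.36 against 0 h and between -4.34 and -3.97 against 24 h. Against 0 h, Cdkn1a fell together with 7 of the 10 macrophage markers, while 1 of the 10 was called higher. The macrophage sum without Lyz2 was 879 to 2036 CPM at 48 h and 3380.4 to 4798 CPM at 0 h. The neutrophil sum was lower too, though 2 of its 9 markers were called higher and 2 lower against 0 h. The Kupffer cell sum was 701 to 4695 CPM at 48 h and 262 to 979 CPM at 0 h. Of its 8 markers, 5 were called higher and 0 lower. The part of these markers in the Cdkn1a result was not tested.

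Cdkn1c (ENSMUSG00000037664, chromosome 7) encodes p57, the product of an imprinted gene and a strong brake on division in many differentiating cells. Its level was 3.56, 0.965 and 2.42 CPM at 0 h, 2.21, 2.66 and 4.26 CPM at 24 h, and 35.1, 45.0 and 37.2 CPM at 48 h. The 48 h libraries lay far above the rest, and the 24 h and 0 h libraries overlapped. The mean was 39.1 ± 5.21 CPM at 48 h, which was 16.9-fold the 2.32 ± 1.30 CPM at 0 h (a log2 fold change of 4.08 ± 0.45, edgeR adjusted p = 0.00016) and 12.8-fold the 3.04 ± 1.08 CPM at 24 h (3.68 ± 0.45, edgeR adjusted p = 0.000297). Both calls held in all 12 alternative settings and without each library in turn. Between 24 h and 0 h the log2 fold change was 0.40 ± 0.41 (edgeR adjusted p = 1). Cdkn1c was highest in 48 h replicate 2, the library in which the endothelial sum (6732 CPM), the B cell sum (818 CPM) and the erythroid sum (169395 CPM) were also highest, and lowest among the 48 h libraries in replicate 1, where these sums were 5408, 380.1 and 42083 CPM. Other sums had another order at 48 h. The T and NK cell sum was highest in replicate 3 (199.6 CPM) and the Kupffer cell sum in replicate 1 (4695 CPM). The part of these cells in the Cdkn1c result was not tested.
Cdkn1b (ENSMUSG00000003031, chromosome 6), whose protein p27 holds many resting cells in G0 and G1, ranged from 5.92 to 18.8 CPM at 0 h, from 7.50 to 13.9 CPM at 24 h and from 4.42 to 14.99 CPM at 48 h. The times overlapped fully, and the spread within a time was as wide as that between times. The log2 fold change was -0.15 ± 0.50 at 24 h against 0 h, -0.49 ± 0.50 at 48 h against 0 h and -0.34 ± 0.50 at 48 h against 24 h (edgeR adjusted p = 1, 0.563 and 0.693).

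Of the INK4 genes, Cdkn2c was called in 1 comparison and Cdkn2d in none. Cdkn2c (ENSMUSG00000028551, chromosome 4) had 7.22, 6.32 and 7.73 CPM at 0 h, 5.01, 3.70 and 4.72 CPM at 24 h, and 6.07, 9.57 and 11.5 CPM at 48 h. Every 24 h library lay below every 0 h and every 48 h library, whereas 48 h and 0 h overlapped. The log2 fold change was 1.01 ± 0.29 at 48 h against 24 h (edgeR adjusted p = 0.0345), -0.66 ± 0.29 at 24 h against 0 h (edgeR adjusted p = 0.726) and 0.35 ± 0.29 at 48 h against 0 h (edgeR adjusted p = 0.468). The 48 h against 24 h call was held without 0 h replicate 2 or 48 h replicate 1 and was lost without each other library, with an adjusted p of 0.0512 and 0.057 without 0 h replicates 1 and 3, of 0.067, 0.107 and 0.0773 without 24 h replicates 1, 2 and 3, and of 0.052 and 0.0796 without 48 h replicates 2 and 3 (edgeR). Of 12 alternative settings 8 gave the call, and those that missed the threshold included upper-quartile factors, limma-voom and the libraries of both times alone (adjusted p = 0.0502, 0.0586 and 0.0715).
Cdkn2d (ENSMUSG00000096472, chromosome 9) was, after Cdkn1a, the most abundant inhibitor per length, at 46.5 CPM per kilobase at 0 h. It had 64.0, 76.7 and 78.8 CPM at 0 h, 89.0, 89.3 and 79.1 CPM at 24 h, and 24.8, 93.8 and 36.2 CPM at 48 h. All 24 h libraries lay above all 0 h libraries, by a small margin, and at 48 h replicate 2 stood high while the other 48 h libraries lay below every earlier library. The log2 fold change was 0.23 ± 0.39 at 24 h against 0 h, -0.50 ± 0.39 at 48 h against 0 h and -0.73 ± 0.39 at 48 h against 24 h (edgeR adjusted p = 1, 0.436 and 0.229). Without 48 h replicate 2, Cdkn2d was called lower at 48 h than at 0 h (-1.21, edgeR adjusted p = 0.0045) and than at 24 h (-1.45, edgeR adjusted p = 0.00191). That library also had the lowest macrophage sum (10445 CPM) and the highest erythroid sum.

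The 3 D cyclins were measured at like levels per length at 0 h, with 10.1 CPM per kilobase for Ccnd1, 6.19 for Ccnd2 and 8.36 for Ccnd3. Ccnd2 and Ccnd1 were higher at 48 h, and Ccnd3 was not called in any comparison. Ccnd2 (ENSMUSG00000000184, chromosome 6), the D cyclin that many blood cells induce on mitogenic signals, had 49.5, 72.1 and 53.2 CPM at 0 h, 53.5, 139.5 and 91.5 CPM at 24 h, and 146, 163 and 181 CPM at 48 h. Every 48 h library lay above every other library, and the 24 h libraries spanned the range between. The mean was 163 ± 17.1 CPM at 48 h and 58.2 ± 12.1 CPM at 0 h, a ratio of 2.80 and a log2 fold change of 1.49 ± 0.31 (edgeR adjusted p = 0.00779), which held in all 12 alternative settings and without each library in turn. At 48 h against 24 h the log2 fold change was 0.78 ± 0.31 (edgeR adjusted p = 0.102), and without 24 h replicate 2, the highest of its time, it was 1.20 (edgeR adjusted p = 0.0222). At 24 h against 0 h it was 0.70 ± 0.31 (edgeR adjusted p = 0.711). The endothelial and B cell sums were also above both other times in every 48 h library, and their part in the Ccnd2 result was not tested.
Ccnd1 (ENSMUSG00000070348, chromosome 7), the D cyclin most often induced by growth factors, had 36.3, 33.5 and 72.5 CPM at 0 h, 49.98, 27.7 and 41.1 CPM at 24 h, and 69.7, 98.1 and 100.1 CPM at 48 h. The 48 h libraries lay above all 24 h libraries, but 0 h replicate 3 reached into the 48 h range. The mean was 89.3 ± 17.0 CPM at 48 h and 39.6 ± 11.2 CPM at 24 h, a ratio of 2.26 and a log2 fold change of 1.17 ± 0.33 (edgeR adjusted p = 0.0295). This call was lost without 24 h replicate 2 (adjusted p = 0.0942), 24 h replicate 3 (0.0735), 48 h replicate 2 (0.0565) or 48 h replicate 3 (0.0644). At 48 h against 0 h the log2 fold change was 0.91 ± 0.33 (edgeR adjusted p = 0.0779), and without 0 h replicate 3 it was 1.35 (edgeR adjusted p = 0.0136). It also passed with DESeq2 (adjusted p = 0.0232) and limma-voom (adjusted p = 0.0447). At 24 h against 0 h it was -0.26 ± 0.32 (edgeR adjusted p = 1).
Ccnd3 (ENSMUSG00000034165, chromosome 17), the D cyclin of many lymphoid and other differentiated cells, had 63.9, 84.6 and 71.8 CPM at 0 h, 121, 62.0 and 127 CPM at 24 h, and 68.7, 63.2 and 177 CPM at 48 h. The times overlapped, and 48 h replicate 3 alone was far above the rest of its time. The log2 fold change was 0.50 ± 0.40 at 24 h against 0 h and 0.49 ± 0.40 at 48 h against 0 h (edgeR adjusted p = 1 and 0.457). At 48 h against 24 h it was -0.005 ± 0.40 (edgeR adjusted p = 0.996), with a sign that turned under several settings. A processed pseudogene, Ccnd3-ps, held 0 to 24 counts in a library, too few to change these levels.

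**Figure D2:**
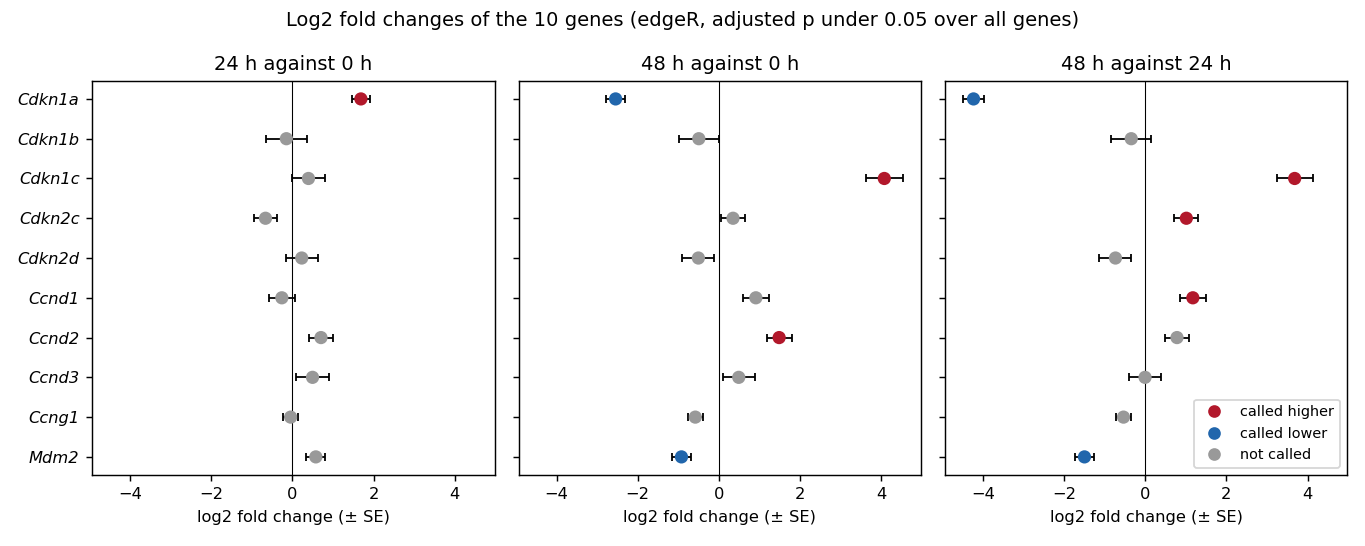
Log2 fold change with SE of each of the 10 genes in the comparisons of 24 h against 0 h, 48 h against 0 h and 48 h against 24 h, from 1 edgeR fit over 9 libraries. Red and blue points passed an adjusted p under 0.05 over all genes tested, and Cdkn1a (-2.54 and -4.23) and Cdkn1c (4.08 and 3.68) lay at opposite ends of both 48 h comparisons.

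Without overlap between libraries, 2 of the 10 genes lay above and 1 below at 24 h against 0 h, where 8.37% of all genes tested lay above and 8.92% below. Between 48 h and 0 h, 2 lay above and 3 below, where 16.5% and 19.7% of all genes did, and at 48 h against 24 h, 4 lay above and 3 below, where 17.2% and 18.4% did. The 3 that lay below in both 48 h comparisons were Cdkn1a, Mdm2 and Ccng1, and the 2 that lay above in both were Cdkn1c and Ccnd2.

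Mdm2 (ENSMUSG00000020184, chromosome 10) followed the order of Cdkn1a over the 3 times with smaller steps. It had 28.9, 21.5 and 18.9 CPM at 0 h, 25.9, 37.1 and 40.4 CPM at 24 h, and 11.04, 11.8 and 13.8 CPM at 48 h. The 48 h libraries lay below all others, and 24 h replicate 1 lay within the 0 h range. The mean was 12.2 ± 1.45 CPM at 48 h, which was 2.82-fold lower than the 34.5 ± 7.61 CPM at 24 h (a log2 fold change of -1.50 ± 0.24, edgeR adjusted p = 0.0015) and 1.89-fold lower than the 23.1 ± 5.2 CPM at 0 h (-0.92 ± 0.23, edgeR adjusted p = 0.0204). The call against 24 h held without each library in turn. The other call, against 0 h, depended on 0 h replicate 1 (without it -0.68, adjusted p = 0.119), on 0 h replicate 2 (-0.93, adjusted p = 0.0599), on 48 h replicate 1 (-0.85, adjusted p = 0.0509) and on 48 h replicate 2 (-0.85, adjusted p = 0.063). At 24 h against 0 h the log2 fold change was 0.58 ± 0.23 (edgeR adjusted p = 0.623).
Ccng1 (ENSMUSG00000020326, chromosome 11) had 33.5, 30.2 and 27.2 CPM at 0 h, 28.0, 29.7 and 30.6 CPM at 24 h, and 16.2, 22.6 and 22.1 CPM at 48 h. The 24 h libraries lay within the 0 h range, around a mean of 29.4 ± 1.32 CPM, and every 48 h library lay below every earlier one. The log2 fold change was -0.04 ± 0.19 at 24 h against 0 h, -0.58 ± 0.19 at 48 h against 0 h and -0.54 ± 0.19 at 48 h against 24 h (edgeR adjusted p = 1, 0.0548 and 0.0695). DESeq2 called Ccng1 lower in both 48 h comparisons (adjusted p = 0.0322 and 0.0382). The pair of genes with adjacent p53 decamers upstream had log2 fold changes of 1.69 (Cdkn1a) and -0.04 (Ccng1) at 24 h against 0 h. Their elements differed in letters and in distance to the start, which for Cdkn1a was the upstream one. Which Cdkn1a start was in use and the part of p53 in these values were not tested.

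Per kilobase of exons, Cdkn1a made up most of the summed level of the 5 inhibitors before 48 h. Its share was 78.2% ± 4.34 (SD, n = 3) at 0 h, 90.9% ± 1.63 at 24 h and 38.5% ± 9.82 at 48 h. Cdkn1c had a share of 0.449% ± 0.219 in 0 h libraries, 0.232% ± 0.121 in 24 h libraries and 21.8% ± 3.36 in 48 h libraries. Cdkn2d made up 19.1% ± 3.80 at 0 h, 8.20% ± 1.41 at 24 h and 33.5% ± 14.6 at 48 h, with 50.2% in 48 h replicate 2, where it exceeded Cdkn1a. Cdkn1b and Cdkn2c together stayed minor in each library. Among the D cyclins, Ccnd1 took 39.97% ± 11.9 at 0 h, 27.6% ± 7.10 at 24 h and 39.9% ± 5.56 at 48 h, with 52.7% in 0 h replicate 3. Ccnd3 took 34.5% ± 5.89 at 0 h, 38.4% ± 11.3 at 24 h and 23.2% ± 9.03 at 48 h, and Ccnd2 took 25.6% ± 6.03, 33.9% ± 17.7 and 36.8% ± 4.69 at the same times, with 53.4% in 24 h replicate 2.
The level of Cdkn1a per kilobase was also set against the sum of the 3 D cyclins per kilobase. This ratio was 11.3, 7.16 and 6.01 at 0 h, 18.6, 28.8 and 15.3 at 24 h, and 0.819, 0.718 and 0.587 at 48 h. Cdkn1a thus exceeded the D cyclins in each library at 0 h and 24 h and was below them in each library at 48 h. These shares and ratios describe the libraries and were given no test.

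**Figure D3:**
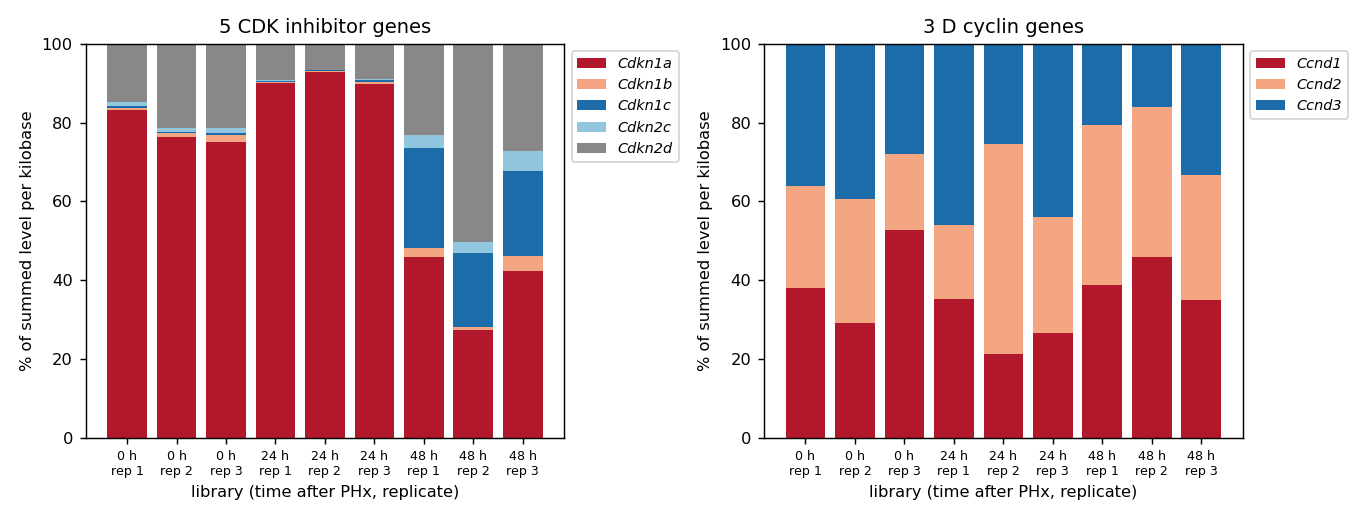
Share in percent of each gene in the summed level per kilobase of exons of the 5 CDK inhibitor genes (left) and the 3 D cyclin genes (right), as stacked bars for the 9 libraries in the order of time. Cdkn1a took 89.8% to 92.8% of the inhibitor sum in the 24 h libraries and 27.4% to 46.0% in the 48 h libraries, where Cdkn1c took 18.6% to 25.3%.

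Genes around these regulators were described from 6 lists, of which 107 genes were tested. At 24 h against 0 h, edgeR called 0 of the 107 higher and 0 lower. With no adjustment, 6 were higher and 3 lower at p under 0.05, 2 and 1 were called by DESeq2, and limma-voom called 0 in either direction. Between 48 h and 0 h, 15 were called higher and 16 lower. These and the 48 h counts of each list below are to be read against the 9.86% and 8.95% of all genes tested (10.2% and 9.6% at 48 h against 24 h). For 24 h against 0 h, edgeR called 10 of all 20204 genes higher and 6 lower. An unadjusted p under 0.05 was reached by 1335 of all genes, and DESeq2 called 267 higher and 107 lower. The 24 h counts above and below are to be read against these values.
The list of CDKs, E cyclins and other inhibitors of G1 held 12 genes, of which 0 were called higher and 2 lower at 48 h against 0 h (likewise 0 and 2 by unadjusted p under 0.05, by DESeq2 and by limma-voom), and 0 higher and 1 lower at 48 h against 24 h. Its median log2 fold change at 48 h against 0 h was 0.006. Cdk6, a partner of the D cyclins, had 21.1, 13.5 and 14.6 CPM at 48 h, against 64.3, 65.8 and 32.8 CPM at 0 h, and the libraries did not overlap. Its log2 fold change was -1.73 ± 0.31 (edgeR adjusted p = 0.00302). Cdkn3, a phosphatase that acts on CDK1 and CDK2, averaged 2.63 ± 1.72 CPM at 48 h and 11.7 ± 2.81 CPM at 0 h (a log2 fold change of -2.16 ± 0.59, edgeR adjusted p = 0.0271). It averaged 1.01 ± 0.470 CPM at 24 h, below every 0 h library (-3.54 ± 0.63 against 0 h, edgeR adjusted p = 0.0844). At 48 h against 24 h its log2 fold change was 1.38 ± 0.59 (edgeR adjusted p = 0.128). Cdk4, the other partner of the D cyclins and a gene picked after its values were seen, averaged 49.7 ± 10.4 CPM at 48 h and 37.5 ± 4.30 CPM at 0 h (0.41 ± 0.22, edgeR adjusted p = 0.241).
Of 17 pocket protein, E2F and DREAM genes, the effectors downstream of the kinases, 3 were called higher and 1 lower at 48 h against 0 h, and 2 higher and 0 lower at 48 h against 24 h. Tfdp2, a dimer partner of E2F factors, averaged 12.6 ± 6.68 CPM at 48 h and 3.69 ± 0.830 CPM at 0 h (a log2 fold change of 1.77 ± 0.44, edgeR adjusted p = 0.0174), whereas its paralogue Tfdp1 averaged 6.58 ± 3.01 CPM at 48 h and 16.2 ± 0.542 CPM at 0 h (-1.30 ± 0.35, edgeR adjusted p = 0.025). E2f7, a repressor of E2F targets, averaged 4.83 ± 2.02 CPM at 48 h and 1.15 ± 0.188 CPM at 0 h (2.07 ± 0.51, edgeR adjusted p = 0.0172). E2f4, the E2F factor of resting cells, averaged 60.4 ± 7.12 CPM at 48 h and 35.7 ± 8.96 CPM at 0 h (0.76 ± 0.21, edgeR adjusted p = 0.0271).

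Of 10 tested genes for p53 and its regulators, 2 were called higher and 0 lower at 48 h against 0 h, and 1 higher and 0 lower at 48 h against 24 h. Trp53, which encodes p53 and was picked after its values were seen, averaged 39.9 ± 2.40 CPM at 0 h, 46.7 ± 16.7 CPM at 24 h and 38.8 ± 6.03 CPM at 48 h. Its log2 fold change was 0.23 ± 0.25 at 24 h and -0.04 ± 0.25 at 48 h, each against 0 h (edgeR adjusted p = 1 and 0.943). Hipk2, a kinase that activates p53, averaged 27.1 ± 3.97 CPM at 48 h and 15.5 ± 4.03 CPM at 0 h (0.81 ± 0.25, edgeR adjusted p = 0.0432). Atm, the kinase that signals DNA breaks to p53, averaged 6.37 ± 0.459 CPM at 48 h and 2.43 ± 1.06 CPM at 0 h (1.39 ± 0.42, edgeR adjusted p = 0.0437). Chek2, a checkpoint kinase downstream of ATM, averaged 3.92 ± 0.641 CPM at 48 h and 1.36 ± 0.775 CPM at 24 h (1.52 ± 0.46, edgeR adjusted p = 0.0409).
Of 34 other p53 target genes tested, 7 were called higher and 7 lower at 48 h against 0 h (20.6% in each direction, where 9.86% and 8.95% of all genes tested were called), and 5 higher and 9 lower at 48 h against 24 h, while edgeR called 0 at 24 h against 0 h (5 higher and 0 lower by unadjusted p under 0.05, 1 higher by DESeq2 and 0 by limma-voom). For 48 h against 0 h the median over the list was -0.33 on the log2 scale. Plk3, a stress kinase, had 17.9, 11.3 and 15.5 CPM at 48 h, against 59.9, 63.5 and 47.8 CPM at 0 h, with no overlap (a log2 fold change of -1.94 ± 0.21, edgeR adjusted p = 0.000133). Rps27l, a ribosomal protein paralogue, averaged 124 ± 9.44 CPM at 48 h and 378 ± 22.5 CPM at 0 h (-1.60 ± 0.17, edgeR adjusted p = 0.000109), and its window too held the p53 element with at most 1 mismatch. Ddit4, an inhibitor of mTORC1 signalling, averaged 1.75 ± 0.167 CPM at 48 h and 12.5 ± 2.71 CPM at 0 h (-2.83 ± 0.29, edgeR adjusted p = 0.000108). Xpc, a DNA damage sensor of nucleotide excision repair, had 30.3, 53.1 and 52.8 CPM at 48 h, against 10.3, 13.4 and 15.04 CPM at 0 h (1.81 ± 0.26, edgeR adjusted p = 0.000882), and so lay above every 0 h library while Cdkn1a lay below.

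**Figure D4:**
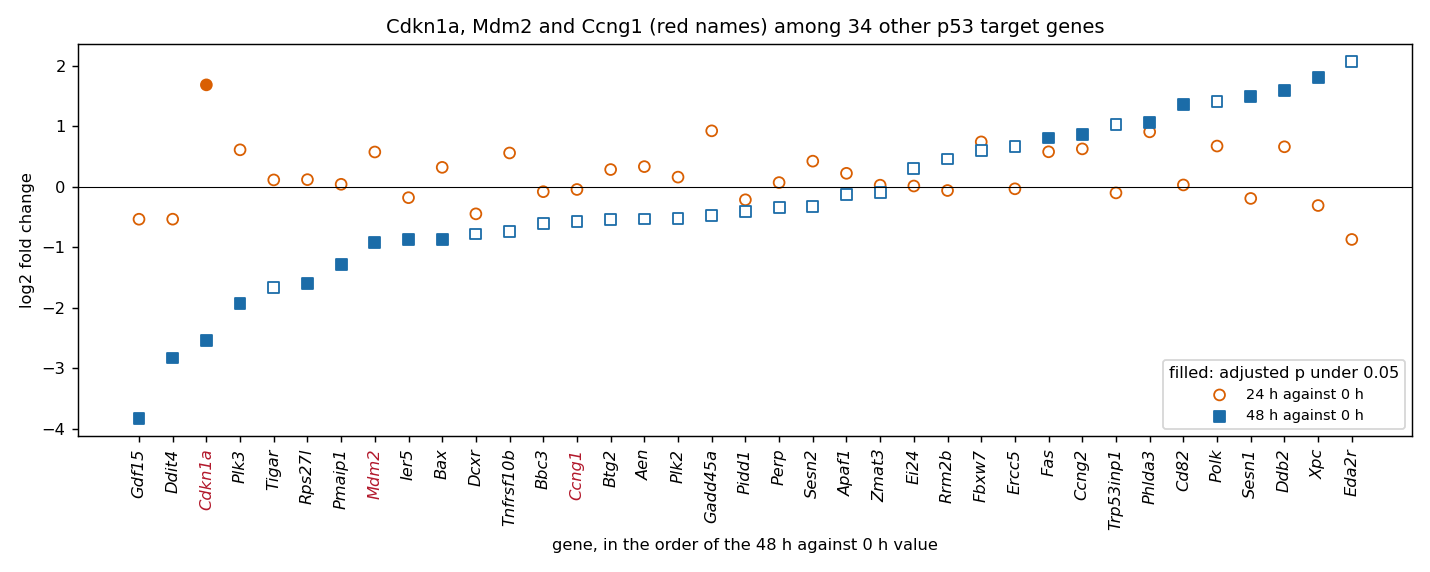
Log2 fold change at 24 h against 0 h (circles) and at 48 h against 0 h (squares) of Cdkn1a, Mdm2 and Ccng1 (red names) and 34 other p53 target genes, in the order of the 48 h value, with filled symbols at an adjusted p under 0.05 in edgeR. At 24 h Cdkn1a alone was filled (1.69), and at 48 h filled symbols stood on both sides of 0, with 7 of the 34 other targets in each direction.

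Among 19 other transcription factors known to act on Cdkn1a, 2 were called higher and 4 lower at 48 h against 0 h, and 2 higher and 7 lower at 48 h against 24 h. Foxo1, an activator of Cdkn1a and Cdkn1b in resting cells, had 46.7, 75.0 and 50.8 CPM at 48 h, against 13.2, 11.4 and 13.7 CPM at 0 h (a log2 fold change of 2.17 ± 0.22, edgeR adjusted p = 8.04e-05), the opposite direction to Cdkn1a. Cebpb, a factor of myeloid differentiation and inflammation, had 149, 155 and 70.2 CPM at 48 h, against 979, 653 and 637 CPM at 0 h (-2.60 ± 0.36, edgeR adjusted p = 0.000591). Egr1, an immediate-early factor, averaged 206 ± 82.5 CPM at 48 h and 817 ± 563 CPM at 0 h (-1.99 ± 0.45, edgeR adjusted p = 0.0107). Mxd1, a MAX partner that opposes MYC, averaged 23.1 ± 11.1 CPM at 48 h and 91.7 ± 6.08 CPM at 24 h (-1.99 ± 0.34, edgeR adjusted p = 0.00229). Its log2 fold change at 24 h against 0 h was 1.09 ± 0.33 (edgeR adjusted p = 0.371). A list of 20 genes of the immediate-early and heat-shock response, which tissue dissociation can also induce, was lower at 48 h. Of its genes 0 were called higher and 14 lower at 48 h against 0 h, with a median log2 fold change of -1.81, and 0 higher and 17 lower at 48 h against 24 h. In both comparisons 0 of its genes were higher by unadjusted p under 0.05, by DESeq2 or by limma-voom. At 24 h against 0 h edgeR called 0 of the 20 in either direction (6 higher and 1 lower by unadjusted p under 0.05, 2 higher by DESeq2 and 0 by limma-voom), with a median of 0.46. The list moved with Cdkn1a in both 48 h comparisons, and its part in the Cdkn1a result was not tested.
Of 15 tested genes for the turnover of p21, p27 and the D cyclins, 1 was called higher and 2 lower at 48 h against 0 h, and 3 higher and 3 lower at 48 h against 24 h. Cks2, a CDK subunit of the same small family as the CKS protein that presents p27 for degradation, averaged 20.6 ± 3.40 CPM at 48 h and 39.9 ± 2.63 CPM at 0 h (a log2 fold change of -0.96 ± 0.19, edgeR adjusted p = 0.00578). Cops5, a COP9 subunit that binds p27, averaged 27.9 ± 6.99 CPM at 48 h and 48.9 ± 5.94 CPM at 0 h (-0.81 ± 0.21, edgeR adjusted p = 0.0222). Rbx1, the RING subunit of cullin ligases, averaged 314 ± 41.1 CPM at 48 h and 477 ± 30.3 CPM at 24 h (-0.60 ± 0.17, edgeR adjusted p = 0.0329). Dtl, the receptor that sends p21 to the CUL4 ligase in S phase, had 2.63, 0.84 and 9.12 CPM at 48 h, against 0.32, 0.52 and 0.84 CPM at 24 h (2.90 ± 0.84, edgeR adjusted p = 0.0345).
Of 28 genes of S phase and mitosis, 0 were called higher and 2 lower at 24 h against 0 h (0 and 15 by unadjusted p under 0.05, 0 and 12 by DESeq2, 0 and 0 by limma-voom), with a median log2 fold change of -1.33. Of all genes tested, edgeR called 0.0495% higher and 0.0297% lower in this comparison. At 24 h, 20 of the 28 lay below every 0 h library and 0 lay above, where 8.92% and 8.37% of all genes tested did. For 48 h against 24 h, 10 were called higher and 1 lower by edgeR, 13 and 1 by DESeq2 and 5 and 1 by limma-voom, with a median of 1.23. Of all genes, edgeR called 10.2% of those tested higher and 9.6% lower. For 48 h against 0 h, 1 was called higher and 3 lower, with a median of -0.52. Whether these values are related to those of Cdkn1a was not tested.

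The genes whose pattern over the 9 libraries was most like that of Cdkn1a, by Pearson correlation of log2 CPM among 6915 genes with a mean of at least 10 CPM, were Nfkbiz (r = 0.993), Basp1 (r = 0.992), Hif1a (r = 0.990), Gadd45b (r = 0.989) and Plaur (r = 0.988). The libraries fall into 3 times and share their scaling, so r mainly follows the means of the times. Nfkbiz, an inducible regulator of NF-kB targets, had 187, 107 and 122 CPM at 0 h, 356, 409.9 and 384 CPM at 24 h and 24.3, 26.6 and 35.2 CPM at 48 h. Basp1, a membrane-associated signalling protein, averaged 457 ± 39.0 CPM at 24 h and 171 ± 27.7 CPM at 0 h, and was called higher at 24 h (a log2 fold change of 1.42, edgeR adjusted p = 0.0294). The other 4 were not called at 24 h against 0 h, with log2 fold changes of 1.46 for Nfkbiz (edgeR adjusted p = 0.0739), 1.07 for Plaur, the urokinase receptor (edgeR adjusted p = 0.0774), 0.78 for Hif1a (edgeR adjusted p = 0.152) and 1.10 for Gadd45b (edgeR adjusted p = 0.19). Hif1a, the oxygen-regulated subunit of HIF-1, averaged 25.1 ± 0.663 CPM at 48 h and 84.2 ± 10.7 CPM at 0 h (-1.74, edgeR adjusted p = 7.03e-05). Gadd45b, a stress-induced gene of the GADD45 family, averaged 61.6 ± 8.61 CPM at 48 h and 244.8 ± 95.03 CPM at 0 h (-1.99, edgeR adjusted p = 0.000496).

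**Figure D5:**
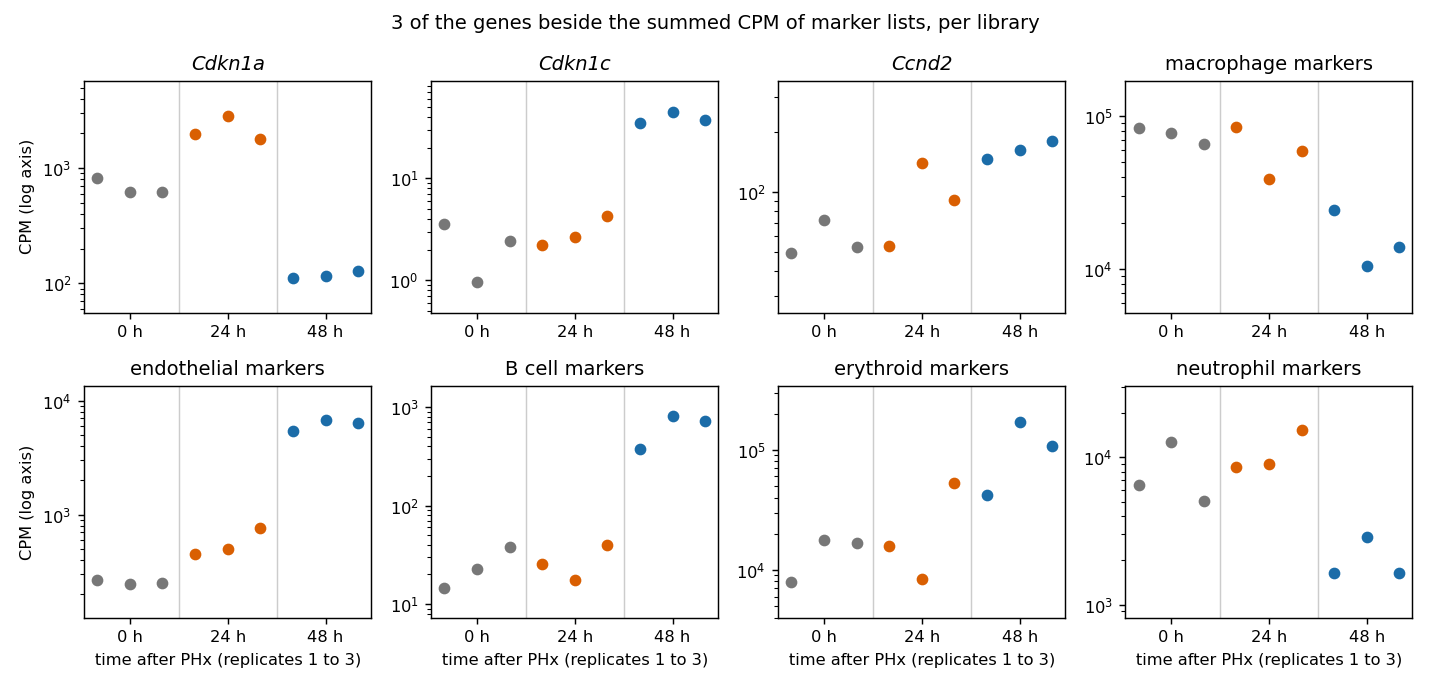
CPM of Cdkn1a, Cdkn1c and Ccnd2 beside the summed CPM of 5 marker lists in each library (log axes, replicates 1 to 3 from left to right within a time). Cdkn1a and the macrophage sum were lowest at 48 h, while Cdkn1c, Ccnd2 and the endothelial (5408 to 6732 CPM) and B cell (380.1 to 818 CPM) sums were highest there. The Kupffer cell sum, which is not drawn, was 701 to 4695 CPM at 48 h and 262 to 979 CPM at 0 h.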

How the data were processed

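RNA of the 9 libraries was sequenced by the authors from a dUTP-stranded library in paired ends. They deposited 1 table of whole-number values per Ensembl gene, and the submitters' processing notes list as tools HISAT2 2.0.5, featureCounts 1.5.0-p3 and CASAVA 1.8. Not given in the sources used here are the genome build and the strand setting of the counting. These deposited values are called estimated counts, because 40.9% to 47.6% of the values from 4 to 40 in a library were multiples of 4. The origin of this excess is not stated, and a unit may not be 1 fragment. The edgeR fit treated the values as counts, with a dispersion estimated from the spread between libraries. This spread was pooled over the times and was widest among the 48 h libraries. Their biological coefficient of variation was 0.81, against 0.42 for the 0 h libraries and 0.44 for the 24 h libraries. The SE of 24 h against 0 h therefore includes 48 h spread. A gene without a call in that comparison is not shown to be unchanged. No 2 libraries were copies (chi-square per gene of at least 99.97 within a time).

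Low genes were removed with filterByExpr (minimum count 10), TMM factors were applied, and time was the factor of a quasi-likelihood fit over all libraries (edgeR 4.0.16, R 4.3.3), with Benjamini-Hochberg adjustment over 20204 genes and a threshold of 0.05. SE is the log2 fold change over the square root of F. Lengths per kilobase are the exon union of GENCODE models, and promoter windows are from RefSeq (GRCm38.p6). Steps were tested on simulated counts. Alternatives were RLE and upper-quartile factors, both filters, DESeq2 1.42.0, limma-voom 3.58.1, only the times compared, a replicate block, thinning, the 20 most-counted or the mitochondrial genes left out, each library left out, and, chosen after seeing the data, counts divided by 4.

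The members and lists were chosen with earlier results of these data known. Named were all 10 genes, up to 4 called genes of each pathway list with the smallest p, and the 5 genes most correlated with Cdkn1a. Lin54, Trp63, Trp73 and Skp1 were listed and not tested. No coordinates were taken from the deposited table.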

Additional observations from a re-analysis of the deposited data

How the results depend on the processing

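No call of the 10 genes changed direction under any setting. Over 630 pairs of a gene's comparison and an alternative, 567 kept direction and side of the threshold, 27 lost a call, 16 gained one and 20 changed sign without a call. Of the last, Ccnd3 at 48 h against 24 h (-0.005) turned to 0.0105 with RLE factors, 0.0106 with DESeq2, 0.0335 with no filter, 0.0267 with at least 10 counts in every library, 0.0292 with only the libraries of both times, 0.0365 without the 20 most-counted genes, 0.0396 without the mitochondrial genes and 0.000624 with counts divided by 4, and ranged from -0.61 to 0.29 with each library left out. With each library left out, the ranges at 24 h against 0 h were -0.47 to 0.30 for Cdkn1b, -0.46 to 0.18 for Ccnd1 and -0.115 to 0.0426 for Ccng1. They were -0.11 to 0.79 for Ccnd3 at 48 h against 0 h and -0.94 to 0.0136 for Cdkn1b at 48 h against 24 h. The cause was not tested.

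With each library left out, 0 to 1 of the 10 genes were called higher at 24 h against 0 h, 1 to 2 lower at 48 h against 0 h, and 1 to 3 higher at 48 h against 24 h. Over all genes, 16 were called at 24 h against 0 h, against 96 with no filter, 67 with at least 10 counts in every library, 374 with DESeq2, 10 with limma-voom, 69 with only those times and 0 to 32 with each library left out. At 48 h against 0 h 3801 were called (2280 to 4198 with each library left out) and at 48 h against 24 h 4010 (2617 to 4460). Upper-quartile factors shifted the median of all genes by -0.15 and -0.11 in the 48 h comparisons, and the split of calls at 48 h against 0 h was then 1674 higher and 2360 lower, where TMM gave 1992 and 1809. It also gave calls for Ccng1 (-0.74 and -0.66, adjusted p = 0.0153 and 0.0266).

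Same-numbered libraries of different times did not deviate together (r between -0.02 and 0.07), so no pairing by number was seen. Values of r over all genes cannot exclude that same-numbered libraries were prepared together. With the replicate block, 0 of the 10 genes were called higher at 24 h against 0 h (Cdkn1a, adjusted p = 0.083 from edgeR) and 2 of all genes, Cdkn2c lost its call at 48 h against 24 h (adjusted p = 0.0628) and Ccnd2 gained one (adjusted p = 0.0448). Depth cannot be read from totals in units that may not be fragments.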
